A study of Mus musculus with 109 samples.

Results

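The genes described here are 10 genes commonly used to mark disease-associated microglia: Apoe, Trem2, Tyrobp, Lpl, Spp1, Itgax, Cst7, Clec7a, Axl and Gpnmb. They were chosen by name, as the rows of these genes in the deposited tables of normalised RNA values, and were followed over every genotype and time. Of the 10, 9 had a row in each of the 4 tables and passed the filter on low values in each, against 13902 genes with a row in any of them. Gpnmb, which encodes a transmembrane glycoprotein of phagocytes, had no row and was not analysed here.

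Microglia are the resident macrophages of the brain parenchyma. The disease-associated state was defined in mouse models of neurodegeneration, where microglia near amyloid plaques lower their resting (homeostatic) genes and raise a set of genes for lipid handling, phagocytosis and lysosomes. TREM2 is a surface receptor for lipids and lipoproteins, APOE among them, and it signals through the adaptor TYROBP (DAP12), which recruits the kinase SYK. Later steps of that state depend on TREM2 in those models. Lipopolysaccharide (LPS), a bacterial cell wall component that activates TLR4, elicits a different, inflammatory state, and interleukin 10 acting through its receptor restrains it.

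RNA was measured in 89 libraries of microglia sorted from mouse brain by CD45 and CD11b, and 88 of them could be placed in 16 groups from their labels. The Il10ra mutants were CX3CR1-CreER:IL10Rafl/fl mice, sampled untreated (9 libraries) and 6 h (7), 24 h (5) and 48 h (5) after LPS. Their controls were IL10Rafl/fl mice without the Cre, sampled untreated (6) and 6 h (6), 24 h (4), 48 h (6) and 7 days (4) after LPS. The double mutants, CX3CR1-CreER:IL10Rafl/fl:TNFfl/fl, were sampled untreated (5) and 6 h (6) and 48 h (4) after LPS. Their doubly floxed controls, IL10Rafl/fl:TNFfl/fl, were sampled untreated (6) and 6 h (5) and 48 h (6) after LPS. Untreated C57BL/6 wild type mice gave 4 libraries. LPS was injected into the peritoneum at 2.5 mg/kg. CreER is a tamoxifen-dependent recombinase, here under the Cx3cr1 promoter, which is active in microglia and in other Cx3cr1-expressing myeloid cells. The labels give neither the tamoxifen schedule nor the ages, and all floxed controls carry the floxed alleles but no Cre. They do not say that libraries of a group came from separate animals, so p-values measure the spread between these libraries, which may in part be technical.

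Libraries were made by MARS-seq, which counts tags at the 3′ ends of transcripts, and held 540642 to 2489084 reads assigned to genes. Values below are the authors' normalised reads, in 4 tables normalised separately, so levels are set beside each other only within a table. The targeted genes differed as labelled. Il10ra averaged 47.6 ± 11.4 normalised reads in Il10ra mutants and 548 ± 85.8 in Il10ra-floxed controls 48 h after LPS (SD, n = 5 and 6). In double mutants 48 h after LPS it averaged 38.5 ± 30.4, against 413 ± 53.3 in doubly floxed controls, and Tnf averaged 6.09 ± 2.27 against 135 ± 62.6 (SD, n = 4 and 6). The deposited column of untreated double mutant replicate 4 carries the word mistake in its name, while its labels all give an untreated double mutant, and it was kept in that group. It had 24.0 normalised reads of Il10ra and 0 of Tnf, within the range of the other 4 (9.75 to 37.1 and 0 to 11.3). Without it limma called 0, 4, 5, 0 and 0 of the 9 genes in the 5 comparisons that use it, the counts given below. The presence of microglia in the sort was read from 11 microglia markers such as P2ry12 and Tmem119, which does not measure its purity. Their summed level was 37994 to 41252 in untreated Il10ra-floxed controls, and none of the 11 was at 0 in every library of a group. Differences are given as log2 of (value + 1) with SE, tested with limma and Benjamini-Hochberg adjustment over all genes of a table, and called at an adjusted p under 0.05. In such bulk samples fewer cells of a type and less RNA per cell cannot be told apart.

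In untreated Il10ra-floxed controls Apoe and the genes of the TREM2 receptor complex gave most of the reads of the 9 genes, and the other 6 were sparse. Apoe, the lipid carrier, had 7258 (lowest), 7819 (median) and 9003 (highest) normalised reads over the 6 libraries. Trem2 had 3119.8 (lowest), 3436 (median) and 4485 (highest). Its adaptor gene Tyrobp had 3186 (lowest), 3459 (median) and 4174 (highest). Itgax, the CD11c integrin chain, lay at 38.6 to 54.2 normalised reads, and Axl, a receptor tyrosine kinase that binds GAS6 on dying cells, at 27.5 to 80.4. Cst7, the protease inhibitor cystatin F, lay at 20.6 to 32.3, and Clec7a, the beta-glucan receptor Dectin-1, at 10.5 to 36.7. Lpl, which hydrolyses triglycerides of lipoproteins, and Spp1, the secreted phosphoprotein osteopontin, were the sparsest, at 4.37 to 29.7 and 2.49 to 12.2 normalised reads. A single read was worth 0.660 to 1.88 normalised reads in this table, so fold changes of Spp1, Lpl and Clec7a rest on few reads in untreated libraries.

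The promoters of 5 genes are shown because their change after LPS differed by genotype at 48 h in the test described below, 4 in one direction and Spp1 in the other. Each runs from 250 bases before to 50 bases after a transcription start in RefSeq on build GRCm38.p6, 5′ to 3′ on the gene's strand. They are Apoe (chr7:19699139-19699438, minus strand), Trem2 (chr17:48346151-48346450, plus strand), Itgax (chr7:128129300-128129599, plus strand), Axl (chr7:25788684-25788983, minus strand) and Spp1 (chr5:104434861-104435160, plus strand). Capitals mark matches on either strand to 3 motifs: TTCNNNGAA for STAT factors, which act downstream of the interleukin 10 receptor, GGG followed 5 bases later by CC for NF-kB and GAGGAA for the myeloid factor PU.1.
Apoe promoter: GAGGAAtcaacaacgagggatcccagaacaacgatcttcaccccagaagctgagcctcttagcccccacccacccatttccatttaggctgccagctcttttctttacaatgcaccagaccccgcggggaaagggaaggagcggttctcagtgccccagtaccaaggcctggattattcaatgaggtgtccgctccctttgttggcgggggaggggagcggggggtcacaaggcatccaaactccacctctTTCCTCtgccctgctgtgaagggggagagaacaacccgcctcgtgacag
Trem2 promoter: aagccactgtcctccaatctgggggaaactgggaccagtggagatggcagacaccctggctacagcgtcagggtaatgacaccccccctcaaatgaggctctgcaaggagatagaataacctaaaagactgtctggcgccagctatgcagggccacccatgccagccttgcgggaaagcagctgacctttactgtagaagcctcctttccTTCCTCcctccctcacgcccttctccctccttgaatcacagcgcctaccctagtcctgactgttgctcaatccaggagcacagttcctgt
Itgax promoter: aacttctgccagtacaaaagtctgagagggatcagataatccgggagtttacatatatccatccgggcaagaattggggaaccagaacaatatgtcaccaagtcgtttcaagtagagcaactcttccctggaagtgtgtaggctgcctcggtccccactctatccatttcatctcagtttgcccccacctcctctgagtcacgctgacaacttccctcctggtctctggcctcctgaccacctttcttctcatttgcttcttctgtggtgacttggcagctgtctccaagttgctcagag
Axl promoter: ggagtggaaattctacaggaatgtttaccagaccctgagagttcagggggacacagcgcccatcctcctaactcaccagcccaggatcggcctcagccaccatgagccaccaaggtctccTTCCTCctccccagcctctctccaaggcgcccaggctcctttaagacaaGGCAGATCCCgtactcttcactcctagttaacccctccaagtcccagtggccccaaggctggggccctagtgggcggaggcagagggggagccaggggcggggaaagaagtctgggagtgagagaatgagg
Spp1 promoter: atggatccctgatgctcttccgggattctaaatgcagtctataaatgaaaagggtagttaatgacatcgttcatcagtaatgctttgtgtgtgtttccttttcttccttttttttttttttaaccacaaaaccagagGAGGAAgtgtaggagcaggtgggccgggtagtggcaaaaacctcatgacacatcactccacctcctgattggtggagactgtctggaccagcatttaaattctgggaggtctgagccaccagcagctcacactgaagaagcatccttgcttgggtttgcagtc

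RefSeq promoters were matched by symbol for 8 of the 10 genes. At the first start site listed, 0 of the 8 held the STAT motif, 1 (Axl) the NF-kB motif and 5 the PU.1 motif. Apoe, Spp1 and Clec7a had further start sites listed, not shown, and Apoe start sites 2 and 3 each held an NF-kB match. Among 32851 mouse promoters of the same length, 8.3% held the STAT motif, 50.8% the NF-kB motif and 28.3% the PU.1 motif. The Itgax, Cst7 and Gpnmb windows held none of the 3, and no match overlapped one of another motif in the windows shown. A match describes letters only, and a missing match says nothing of the factor, since the window is short.

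After LPS the genes of Il10ra-floxed control microglia did not move as a block. The fits held a term for the experiment, so the 6 h and 24 h changes rest on untreated replicates 1 to 3. Those at 48 h rest on untreated replicates 4 to 6, while the untreated ranges given cover all untreated libraries. At 6 h Spp1, Itgax and Cst7 rose while Trem2 and Tyrobp fell, which is 5 of 9 genes called, beside 41.5% of all genes tested (20.4% higher and 21.1% lower). At 24 h Spp1, Cst7 and Axl were called higher and Trem2 and Clec7a lower (5 of 9, beside 29.2% of all genes). At 48 h Apoe, Cst7 and Axl were higher (3 of 9, beside 19.0% of all genes, 11.1% higher and 7.9% lower), and none was called lower. The medians over the 9 genes were 0.50, 0.12 and 0.55 on the log2 scale at these 3 times, and those over all genes -0.05, 0.01 and -0.02.

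**Figure D1:**
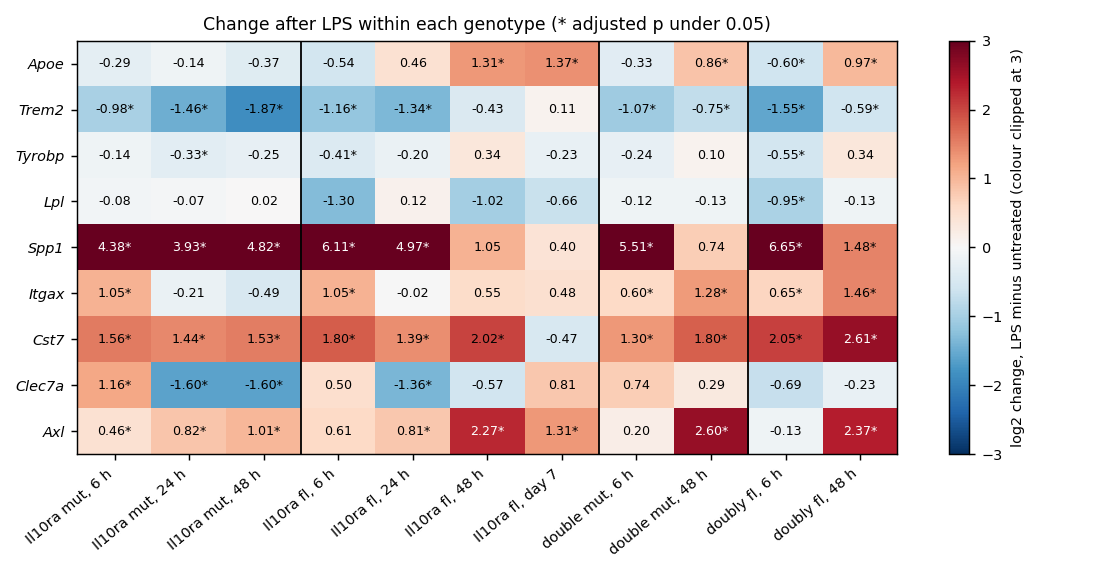
Log2 change of each gene after LPS, as log2(value + 1) of LPS minus untreated libraries of the same genotype, in 11 comparisons from limma fits; rows are genes, columns genotype and time, colour the change (clipped at 3), and asterisks mark adjusted p under 0.05. The Spp1 change is largest at 6 h (6.11 in Il10ra-floxed controls) except in Il10ra mutants. There the change, not the level, is largest at 48 h (4.82), set against lower untreated values than at 6 h. Trem2 is negative at 6 h, 24 h and 48 h, and Axl and Cst7 are positive at 48 h, in every genotype sampled then.

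Of the receptors and the adaptor, Trem2 had 1497 (lowest), 1598 (median) and 2211 (highest) normalised reads at 6 h, 1355, 1443, 1976 and 1385 at 24 h and 1966 (lowest), 2392 (median) and 2845 (highest) at 48 h. Every library at 6 h and 24 h lay below every untreated one, and the 48 h libraries were lower than the untreated ones too, though they overlapped the 6 h range. The change was -1.16 ± 0.18 at 6 h and -1.34 ± 0.18 at 24 h on the log2 scale (limma adjusted p = 5.89e-06 and 1.61e-06), that is 0.394 times the untreated level at 24 h. At 48 h the difference was -0.43 ± 0.16 (limma adjusted p = 0.0642), which missed the threshold here and passed it with edgeR and DESeq2 on whole reads (adjusted p = 0.0449 and 0.0209). Without the term for the experiment, so against all untreated libraries, it was -0.58 (limma adjusted p = 0.00244). Tyrobp moved less: 2515 to 3539 normalised reads at 6 h, overlapping the untreated libraries, with a log2 difference of -0.41 ± 0.17 (limma adjusted p = 0.0457). That call was lost in 9 of 12 fits that left out 1 library, with adjusted p up to 0.142. Clec7a had 2.86, 4.84, 23.6 and 9.18 normalised reads at 24 h, 3 of the 4 libraries below the untreated range, and was called lower (-1.36 ± 0.45, limma adjusted p = 0.0222). Leaving out an untreated library (replicate 2 or 3) or a 24 h library (replicate 1 or 2) ended the call, with values of -0.95, -1.33, -0.94 and -1.17.

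Of the lipid genes, Apoe had 4504 (lowest), 5483 (median) and 7247 (highest) normalised reads at 6 h, 7571, 8762, 18625 and 12369 at 24 h and 13581 (lowest), 19051 (median) and 23097 (highest) at 48 h. All 6 libraries at 48 h stood above all untreated ones, whereas 2 of the 24 h libraries lay within the untreated range and 2 above it. The rise at 48 h was 1.31 ± 0.29 on the log2 scale, or 2.48-fold (limma adjusted p = 0.00137). Lpl stayed sparse, with 0 to 41.3, 8.16 to 32.6 and 6.30 to 21.5 normalised reads at 6, 24 and 48 h, and its intervals were wide (-2.50 to 0.45 at 48 h), so only large changes were detectable at this depth.

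Spp1 had the steepest course. It had 194 (lowest), 347 (median) and 455 (highest) normalised reads at 6 h, 279, 248, 88.7 and 105 at 24 h and 5.13 (lowest), 10.8 (median) and 17.97 (highest) at 48 h. The 6 h and 24 h libraries lay far above every untreated one, and the 48 h libraries overlapped the untreated range again. The log2 rise was 6.11 ± 0.58 at 6 h and 4.97 ± 0.58 at 24 h (limma adjusted p = 1.82e-09 and 1.79e-07), against 1.05 ± 0.52 at 48 h (adjusted p = 0.166). Cst7 was higher at all 3 times, at 68.5 to 106.9, 45.9 to 98.1 and 59.4 to 157.7 normalised reads, none overlapping the untreated libraries, with log2 changes of 1.80, 1.39 and 2.02 (limma adjusted p at most 0.000392). Itgax rose at 6 h only among these tests, to 74.1 to 122.04 normalised reads (1.05 ± 0.27, limma adjusted p = 0.00227). Tyrobp, with a log2 difference of 0.34 at 48 h, passed with DESeq2 only (adjusted p = 0.0112). At 48 h Itgax spread over 41.02 to 114.1 and its difference was 0.55 ± 0.24 (adjusted p = 0.116).

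Axl was called higher from 24 h on in the main fit. It had 39.1 (lowest), 60.5 (median) and 85.1 (highest) normalised reads at 6 h, 71.4, 83.5, 83.1 and 70.4 at 24 h and 107.1 (lowest), 143 (median) and 228 (highest) at 48 h, where all 6 libraries exceeded the highest untreated library. The log2 change was 2.27 ± 0.24 at 48 h, or 4.82-fold (limma adjusted p = 6.09e-08). At 24 h it was 0.81 ± 0.27 (adjusted p = 0.022), a call that edgeR and DESeq2 did not share (adjusted p = 0.0635 and 0.0566) and that ended without untreated replicate 2 (0.66) or 3 (0.59). At 6 h Axl was not called in the main fit. It was called there without the term for the experiment (0.65, limma adjusted p = 0.0163). Leaving out untreated replicate 1, the highest untreated library, also gave a call (0.98, limma adjusted p = 0.00398).

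Other genes of the neurodegeneration programme were read from a list of 30. In Il10ra-floxed controls 15 of the 29 tested were higher and 6 lower at 48 h, with a median log2 change of 0.70 beside -0.02 over all genes. The largest were Cybb, a subunit of the phagocyte NADPH oxidase (3.68 ± 0.29), the secreted glycoprotein gene Lgals3bp (2.46 ± 0.18) and Cd52 (2.16 ± 0.27). Of 15 lipid genes tested 5 were higher and 1 lower, among them the apolipoprotein gene Apoc1 (3.98 ± 0.45) and the lipase inhibitor gene Angptl4 (1.57 ± 0.47). Of 16 homeostatic microglia genes 0 were higher and 11 lower at 48 h (median -1.001), led by the orphan receptor gene Gpr34 (-2.98 ± 0.64), the purinergic receptor gene P2ry12 (-2.04 ± 0.22) and the lectin gene Siglech (-1.79 ± 0.17). Each of these genes had a limma adjusted p of at most 0.0185. Border macrophage markers were mixed at 48 h: 2 of 7 were higher, Cbr2 and F13a1, and 1, Cd163, was lower, with summed levels of 63.9 to 121.6 at 48 h and 13.7 to 64.4 untreated. Monocyte markers summed to 64.3 to 163 at 6 h, 54.3 to 192 at 24 h and 87.8 to 229.7 at 48 h, against 21.5 to 43.7 untreated, without overlap. Of the 7 tested, 4 were higher and 1 lower at 6 h, and 1 was higher and 1 lower at 24 h and at 48 h. The gene higher at all 3 times was Fn1, the fibronectin gene (6.11 ± 0.59 at 48 h), with 136 ± 51.7 normalised reads at 48 h and 0.79 ± 0.68 untreated (SD, n = 6 each), and the lower one was Ccr2, a chemokine receptor gene (-1.97 ± 0.49). The 11 microglia markers summed to 16676 to 18711 at 6 h, 10401 to 20968 at 24 h and 20806 to 26700.2 at 48 h, all below the untreated libraries. The part of these markers in the changes of Spp1, Itgax, Cst7, Apoe and Axl was not tested.

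Partner genes were called in both directions over the same 48 h in Il10ra-floxed controls, and the counts stand beside 11.1% of all genes higher and 7.9% lower. Of 15 TREM2 and Dectin-1 signalling genes 2 were higher and 1 lower (median 0.00), 3 of 15 in all, a share near the 19.0% of all genes: Hcst (1.89 ± 0.26), the TREM2-shedding protease gene Adam17 (0.48 ± 0.15) and the adaptor gene Blnk (-1.17 ± 0.18). Of 5 genes of the GAS6 axis 1 was higher, Socs3 (2.45 ± 0.26), a feedback inhibitor of cytokine signalling, and 1 lower, Mertk (-0.53 ± 0.17), with a median of 0.64. Of 10 osteopontin receptors and integrin partners 4 were higher and 1 lower (median 0.32), led by the integrin genes Itgal (3.37 ± 0.40) and Itgb2 (1.04 ± 0.19) and by Cd44 (1.87 ± 0.47). Of 8 lysosomal genes and regulators 2 were higher and 2 lower (median -0.29), with Grn higher (1.01 ± 0.17) and Tmem106b (-1.06 ± 0.22) and the transcription factor gene Tfeb (-0.95 ± 0.24) lower (limma adjusted p of each at most 0.0289).

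At 7 days 2 of the 9 genes were called, both higher, beside 4.1% of all genes, 3.14% higher and 0.955% lower. Apoe had 33634, 24272, 18102 and 11612 normalised reads in the 4 libraries and Axl 105, 127, 93.8 and 68.9. All 4 Apoe values lay above the untreated range, and 1 Axl value lay within it. Their log2 changes were 1.37 ± 0.26 and 1.31 ± 0.22 (limma adjusted p = 0.00119 and 0.000275). Trem2 was back at 3774, 3801, 3677 and 4086 normalised reads, within the untreated range (0.11 ± 0.15, 95% interval -0.19 to 0.41), and Spp1, at 15.3, 18.5, 2.64 and 1.53, did not pass the test (adjusted p = 0.774). The 7-day libraries formed an experiment of their own, so time and experiment cannot be told apart. Markers of other cells moved with them. All 7 border macrophage markers tested were higher, with summed levels of 229.8 to 527 at 7 days and 13.7 to 64.4 untreated. All 7 monocyte markers tested were higher too (247 to 741 and 21.5 to 43.7), as were 7 of 8 neutrophil markers (2480.5 to 18174 and 6.01 to 751) and 5 of 5 erythroid markers (1598 to 3599 and 0 to 257). Border macrophages also express Apoe and Axl, and the part of these cells in the result was not tested.

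Over the whole course of the controls, untreated to 7 days, the highest mean was at 7 days for Apoe, Trem2 and Clec7a, at 6 h for Spp1 and Itgax, at 48 h for Tyrobp, Cst7 and Axl, and untreated for Lpl. In most neighbouring pairs of that order the libraries overlapped. They did not overlap between untreated and 6 h for Apoe (means of 5579 at 6 h and 7889 untreated), between 48 h and untreated for Trem2, between 24 h and 48 h for Spp1, between 7 days and untreated for Itgax and between 24 h and untreated for Cst7. Of the other neurodegeneration genes 4 of 29 were higher at 7 days and 0 lower (median 0.19, beside 0.00 over all genes), led by Cybb (3.27 ± 0.27), Lgals3 (2.34 ± 0.35) and the lysozyme gene Lyz2 (1.36 ± 0.16). Of 16 homeostatic genes 1, Sparc, was lower (-0.61 ± 0.17). Of 15 lipid genes 2 were higher, among them Pltp (2.83 ± 0.44), which encodes a phospholipid transfer protein. The 7-day libraries were an experiment of their own, with higher markers of monocytes, neutrophils and border macrophages. The part of those cells in the 7-day changes of these lists was not tested.

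Il10ra mutants and their controls had no called difference in the 9 genes before LPS or at 6 h and 24 h, and 6 of the 9 differed at 48 h. Untreated, limma called 0 of 9 genes, beside 0.00865% of all genes, with 1 at an unadjusted p under 0.05 (Axl, 0.44 ± 0.21) and 0 called by edgeR or DESeq2. At 6 h the count was also 0 (beside 3.31% of all genes; 2 at an unadjusted p under 0.05, Lpl and Clec7a, and 0 by edgeR or DESeq2). At 24 h limma again called 0 (beside 3.5% of all genes, 1.11% higher and 2.4% lower; 1 at an unadjusted p under 0.05, Apoe), while edgeR and DESeq2 each called 1, Apoe. Apoe at 24 h had 7265, 6223, 5769.6, 6472 and 7479.9 normalised reads in mutants and 6964, 8018, 17094 and 11329 in controls, overlapping ranges, with a log2 difference of -0.59 ± 0.22 (limma adjusted p = 0.114, edgeR 0.0389, DESeq2 0.0232). Trem2 libraries at 24 h overlapped, at 888, 1385, 1672, 1350.2 and 1518 in mutants and 1247, 1320.4, 1813 and 1269 in controls, a log2 difference of -0.08 ± 0.18 with a 95% interval of -0.44 to 0.28. The 2 experiments behind it went opposite ways. The difference was -0.38 in the second Il10ra experiment (2 mutant libraries against 3) and 0.25 in the one labelled LPS challenged (3 against 1).

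**Figure D2:**
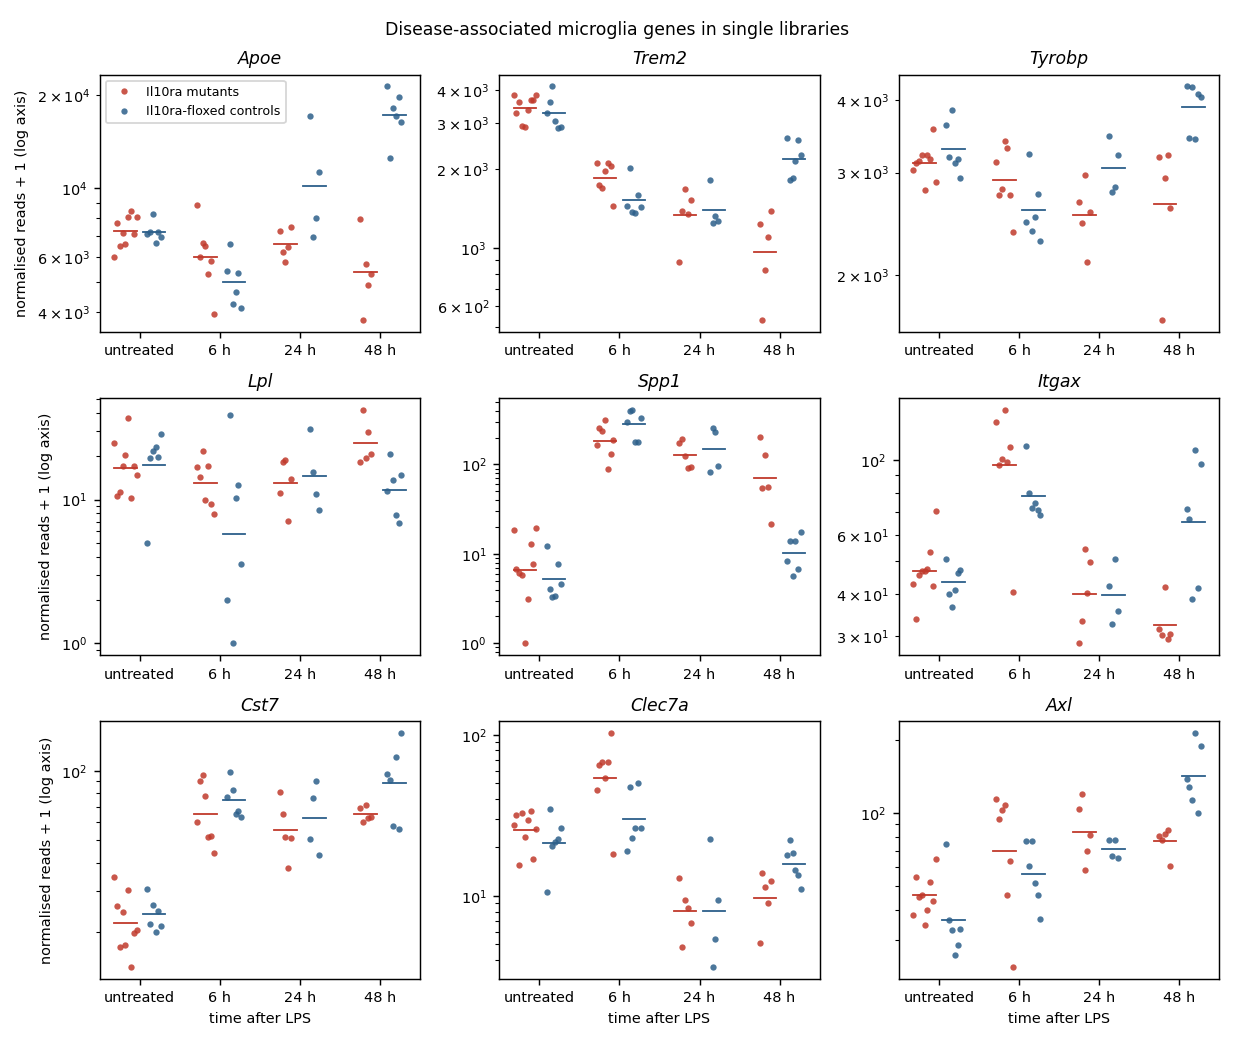
Normalised reads plus 1 (log axis) of the 9 genes in each library, by time after LPS; each point is 1 library, Il10ra mutants left and Il10ra-floxed controls right at each time, and each bar is the mean of the log values. At 48 h the Spp1 mutant libraries lie at 20.5 to 201 normalised reads and the control libraries at 4.73 to 16.5, while Apoe, Trem2 and Axl lie lower in the mutants.

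At 48 h, 1 of the 9 genes was higher in Il10ra mutants and 5 were lower, beside 27.9% of all genes called (12.7% higher and 15.2% lower). The median over the 9 genes was -0.77 on the log2 scale, beside 0.01 over all genes. Apoe, Trem2, Tyrobp, Itgax and Axl were lower and Spp1 was higher. The mutant libraries at 48 h came from 2 experiments, 3 libraries sharing the controls' experiment (replicates 1 to 3) and 2 from another (replicates 4 and 5). With the term for the experiment the fitted differences rest on the first 3.

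Apoe had 7993, 3766, 5701, 4862 and 5293 normalised reads in the 5 Il10ra mutant libraries, and 12520.3 (lowest), 17631 (median) and 21342 (highest) in the 6 controls. Every mutant library lay below every control library. The log2 difference was -1.64 ± 0.23, which is 0.321 times the control level (limma adjusted p = 3.59e-07). Trem2 had 1239, 532, 828, 1103 and 1386 in mutants and 1813 (lowest), 2209.9 (median) and 2629 (highest) in controls, again without overlap (-1.42 ± 0.18, 0.373 times, limma adjusted p = 7.83e-08). Tyrobp, its adaptor, had 3187, 1673, 2938, 3217 and 2605 in mutants and 3429 (lowest), 4066 (median) and 4221 (highest) in controls, also without overlap (-0.64 ± 0.16, limma adjusted p = 0.00185). The second mutant library was the lowest of all for these 3 genes.

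Axl had 79.4, 76.9, 81.02, 84.3 and 59.9 normalised reads in mutants, and 99.03 (lowest), 132.03 (median) and 212 (highest) in controls. The mutant values sat close together below the scattered control values, and the log2 difference was -0.82 ± 0.27 (limma adjusted p = 0.017). Itgax had 30.6, 29.4, 40.9, 28.4 and 29.6 in mutants and 37.8 (lowest), 67.97 (median) and 105.98 (highest) in controls. Only the third mutant library reached into the control range (-0.94 ± 0.27, limma adjusted p = 0.00717). Without the second mutant library 3 of the 6 calls were lost: Tyrobp (-0.35), Itgax (-0.85) and Axl (-0.80), with limma adjusted p of 0.135, 0.0544 and 0.069.

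Spp1 went the other way, with 201, 53.9, 125, 55.02 and 20.5 normalised reads in mutants and 4.73 (lowest), 10.03 (median) and 16.5 (highest) in controls. Every mutant library exceeded every control library, the fifth by little, and the mutant values were widely spread. The log2 difference was 3.46 ± 0.50, or 11.02-fold on the log2(value + 1) scale (limma adjusted p = 7.21e-07). At 24 h Spp1 had lain at 89.5 to 191 in mutants and 81.4 to 257 in controls, so 1 mutant library at 48 h was above, 1 within and 3 below the mutants' 24 h range, while all controls at 48 h were below theirs. Cst7 (58.7 to 69.8 in mutants and 54.9 to 145 in controls), Clec7a (4.07 to 12.8 and 10.1 to 21.4) and Lpl (17.3 to 41.1 and 5.83 to 19.8) did not pass. Their log2 differences were -0.41 ± 0.23, -0.77 ± 0.42 and 1.08 ± 0.60 (limma adjusted p = 0.171, 0.174 and 0.18), and Lpl passed with edgeR (adjusted p = 0.0414) but not DESeq2 (0.0732).

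**Figure D3:**
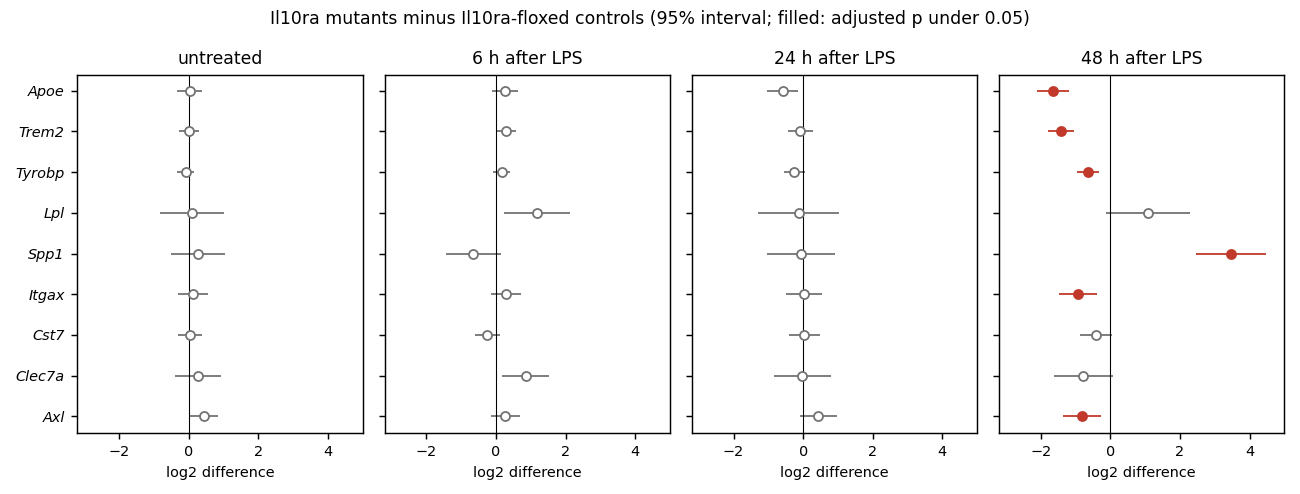
Log2 difference of each gene, Il10ra mutants minus Il10ra-floxed controls, on log2(value + 1), with 95% intervals from limma, untreated and 6 h, 24 h and 48 h after LPS; filled points have an adjusted p under 0.05. No point is filled before 48 h, where Spp1 stands at 3.46 and Apoe at -1.64.

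The test of the difference itself, the change after LPS in mutants minus that in controls, called 5 of the 9 genes at 48 h, 1 higher and 4 lower (beside 16.4% of all genes, 6.74% higher and 9.64% lower). These were Spp1 (3.19 ± 0.63, limma adjusted p = 0.000327), Apoe (-1.67 ± 0.29, 5.24e-05), Trem2 (-1.43 ± 0.23, 1.89e-05), Axl (-1.26 ± 0.34, 0.00671) and Itgax (-1.06 ± 0.34, 0.0255). The Itgax call ended without control replicate 4 (-0.92) or 6 (-0.95) or mutant replicate 1 (-1.01) or 2 (-0.98), all at 48 h. Tyrobp was just outside (-0.55 ± 0.20, limma adjusted p = 0.0516), and it passed with DESeq2 (adjusted p = 0.0229), with a filter at 20 (0.0313) and with a pseudocount of 5 (0.0462). At 6 h and 24 h limma called 0 of 9 such differences (beside 0.0% and 0.0433% of all genes, with 0 and 1, Apoe, at an unadjusted p under 0.05, and 0 by edgeR or DESeq2).

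The microglia markers moved with the same libraries. At 48 h 10 of 11 were lower in Il10ra mutants, with summed levels of 6378 to 11883 in mutants and 19182 to 24525 in controls. Border macrophage markers summed to 9.76 to 27.5 in mutants and 58.7 to 107.5 in controls, with 1 of 5 tested lower, Cbr2 (-4.33 ± 0.71). Monocyte markers summed to 25.6 to 169 and 80.7 to 213 (1 of 6 higher, Ly6c2), and neutrophil markers to 28.3 to 1289 and 26.6 to 241 (2 of 8 higher, Camp and Ngp), in mutants and controls. Markers of oligodendrocytes summed to 87.0 to 124.2 in mutants and 62.4 to 86.5 in controls, and those of neurons to 8.82 to 20.4 and 4.04 to 6.86, without overlap, with 0 of 4 and 0 of 1 called. Markers of astrocytes, endothelial cells and dendritic cells summed to at most 203, 14.4 and 23.5 in mutants and 295, 32.1 and 8.67 in controls. Whether cell make-up had a part in the lower Apoe, Trem2 and Axl or the higher Spp1 was not tested.

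Partners of these genes were read from lists chosen by gene function at 48 h, as Il10ra mutants minus controls, beside 12.7% of all genes higher and 15.2% lower. In the GAS6 axis of Axl 3 of 5 genes tested were lower and 0 higher (median -0.71): the ligand genes Gas6 (-2.57 ± 0.30) and Pros1 (-1.29 ± 0.20) and the sister receptor gene Mertk (-0.71 ± 0.19). Of 15 lipid genes 1 was higher and 8 lower (median -0.53), led by Apoc1 (-2.33 ± 0.50), the LXR receptor gene Nr1h3 (-1.75 ± 0.62) and Lmf1, needed for lipase maturation (-1.34 ± 0.22). Of 15 TREM2 and Dectin-1 signalling genes 1 was higher and 5 lower (median -0.30), including Hcst, which encodes the adaptor DAP10 (-0.95 ± 0.24), Adam10, a protease that sheds TREM2 (-0.77 ± 0.23), and the higher Vav1 (0.70 ± 0.17).

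Among 10 receptors of osteopontin and integrin partners of CD11c, 1 was higher and 5 lower (median -0.35). Cd44, an osteopontin receptor, was higher by 2.93 ± 0.55, while the integrin chains Itgb5 (-2.15 ± 0.26) and Itgam (-1.30 ± 0.19) were lower. Of 9 lysosomal genes and regulators 0 were higher and 5 lower (median -0.59), among them the transcription factor gene Mitf (-2.58 ± 0.37), the progranulin gene Grn (-0.83 ± 0.15) and the lysosomal membrane gene Lamp1 (-0.71 ± 0.18). The 28 other neurodegeneration genes tested were split, 7 higher and 12 lower (median -0.38), with the chemokine genes Ccl3 (3.07 ± 0.49) and Ccl4 (2.74 ± 0.50) and the galectin-3 gene Lgals3 (2.33 ± 0.43) the largest, all higher. Of 16 homeostatic genes 0 were higher and 12 lower (median -1.32), led by Olfml3 (-3.82 ± 0.39), the fructose transporter gene Slc2a5 (-3.53 ± 0.38) and Gpr34 (-2.05 ± 0.61). That list shares 11 genes with the microglia markers. The median over all genes was 0.01, and each limma adjusted p of a gene named here or for the partners above was at most 0.0287.

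**Figure D4:**
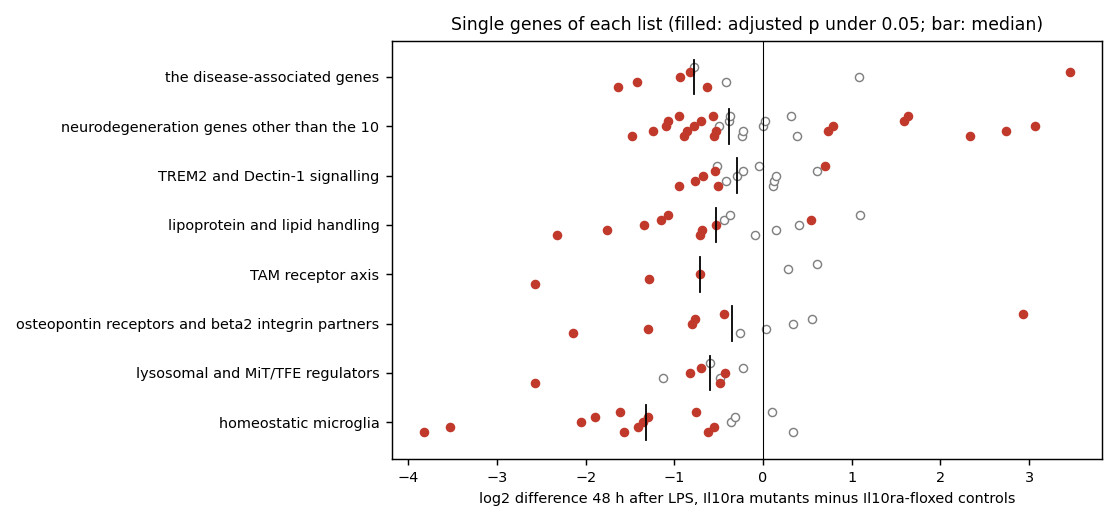
Log2 difference at 48 h after LPS, Il10ra mutants minus Il10ra-floxed controls, of single genes in the set and in 7 related lists; each point is a gene, filled at a limma adjusted p under 0.05, and each bar is the list's median. The medians run from -1.32 (homeostatic genes) to -0.30 (TREM2 and Dectin-1 signalling), and the set's own median is -0.77.

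Within the Il10ra mutants LPS called 6 of 9 genes at 6 h (5 higher and 1 lower, beside 55.1% of all genes, 26.5% higher and 28.6% lower), 6 at 24 h (3 and 3, beside 53.5%, 26.0% higher and 27.4% lower) and 5 at 48 h (3 and 2, beside 35.6%, 17.7% higher and 17.9% lower). Trem2 changed by -0.98 ± 0.14, -1.46 ± 0.15 and -1.87 ± 0.20 on the log2 scale, with libraries at 532 to 1386 normalised reads at 48 h and 2889.6 to 3816 untreated. Spp1 was raised at each time, by 4.38 ± 0.38, 3.93 ± 0.42 and 4.82 ± 0.54. Its mean at 48 h was 127 normalised reads in the third Il10ra experiment, against 2.32 untreated there. At 6 h the means were 243 in the second Il10ra experiment and 135 in the one labelled LPS challenged, against 9.47 and 12.3 untreated. The larger change at 48 h is therefore set against a lower untreated level, and is not a higher level of Spp1 than at 6 h. Cst7 was raised at each time as well, by 1.56, 1.44 and 1.53 (limma adjusted p at most 1.62e-06 for these 3 genes).

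Clec7a in the mutants was higher at 6 h (1.16 ± 0.32, limma adjusted p = 0.00203) and lower at 24 h (-1.60 ± 0.35, 0.000162) and 48 h (-1.60 ± 0.45, 0.00447). Its libraries held 17.2 (lowest), 63.5 (median) and 101 (highest) normalised reads at 6 h, 11.96, 3.81, 8.44, 7.36 and 5.81 at 24 h and 4.07, 12.8, 10.4, 7.99 and 11.4 at 48 h, and 14.5 (lowest), 26.6 (median) and 32.7 (highest) untreated. The 24 h and 48 h libraries all lay below every untreated one, and the 48 h call ended without mutant replicate 1 (-1.16, limma adjusted p = 0.0691). Itgax rose at 6 h (1.05 ± 0.21, limma adjusted p = 2.47e-05) and at 48 h stood at -0.49 (adjusted p = 0.197). Apoe, which rose in controls at 48 h, had a log2 difference of -0.37 ± 0.25 in mutants (adjusted p = 0.252), with 7993, 3766, 5701, 4862 and 5293 normalised reads at 48 h and 6014 to 8439 untreated.

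Axl was called higher in the mutants at all 3 times, by 0.46, 0.82 and 1.01 (limma adjusted p = 0.0486, 0.00174 and 0.00474). The 6 h call was lost in 11 of 16 fits that left out 1 library, and the 2 experiments behind it went opposite ways, 1.20 in the second Il10ra experiment (4 libraries against 3) and -0.37 in the one labelled LPS challenged (3 against 3). Apoe at 6 h gave 0.04 and -0.67 in these experiments, and Trem2 -0.93 and -1.01. Tyrobp was lower at 24 h (-0.33 ± 0.13, limma adjusted p = 0.0343), a call lost in 3 of 14 fits without 1 library, and Lpl was not called at any time. Tyrobp at 6 h (-0.14) was called under quantile normalisation (-0.56, limma adjusted p = 0.000126). The 11 microglia markers summed to 15025 to 20111 at 6 h, 9066 to 10862 at 24 h and 6378 to 11883 at 48 h in the mutants, against 29972 to 36893 untreated, and their part in these changes was not tested.

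The double mutants address whether the same genes differ when the cells lack Tnf as well, the gene of an inflammatory cytokine. Double mutants and doubly floxed controls differed in 0 of 9 genes by limma, untreated, at 6 h and at 48 h, beside 0.0254%, 0.0678% (0.0254% higher and 0.0424% lower) and 0.0169% of all genes. At an unadjusted p under 0.05 the counts were 1 (Spp1), 2 (Cst7 and Trem2) and 1 (Cst7), and edgeR and DESeq2 also called 0. At 48 h Apoe had 11674, 13625, 10682 and 15967 normalised reads in double mutants and 9851 (lowest), 14536 (median) and 20588 (highest) in doubly floxed controls, overlapping ranges with a log2 difference of -0.22 ± 0.21 (95% interval -0.65 to 0.22). Trem2 had 1621, 2251, 2706 and 3107 and 1913 (lowest), 2413 (median) and 3522 (highest) (-0.15 ± 0.19, interval -0.53 to 0.24), and Axl 120.2, 195, 221 and 155.7 and 103 (lowest), 133 (median) and 226 (highest) (0.21 ± 0.26, interval -0.32 to 0.74), in double mutants and controls. Spp1 had 23.9, 25.2, 13.2 and 21.4 in double mutants and 5.06 (lowest), 13.7 (median) and 20.7 (highest) in controls (0.58 ± 0.35, interval -0.14 to 1.30). These intervals include 0 but do not show that the genotypes are alike. Untreated, Spp1 stood at 11.3, 9.16, 21.4, 15.6 and 7.32 in double mutants and 1.69 to 10.2 in controls (1.32 ± 0.33, limma adjusted p = 0.469).

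**Figure D5:**
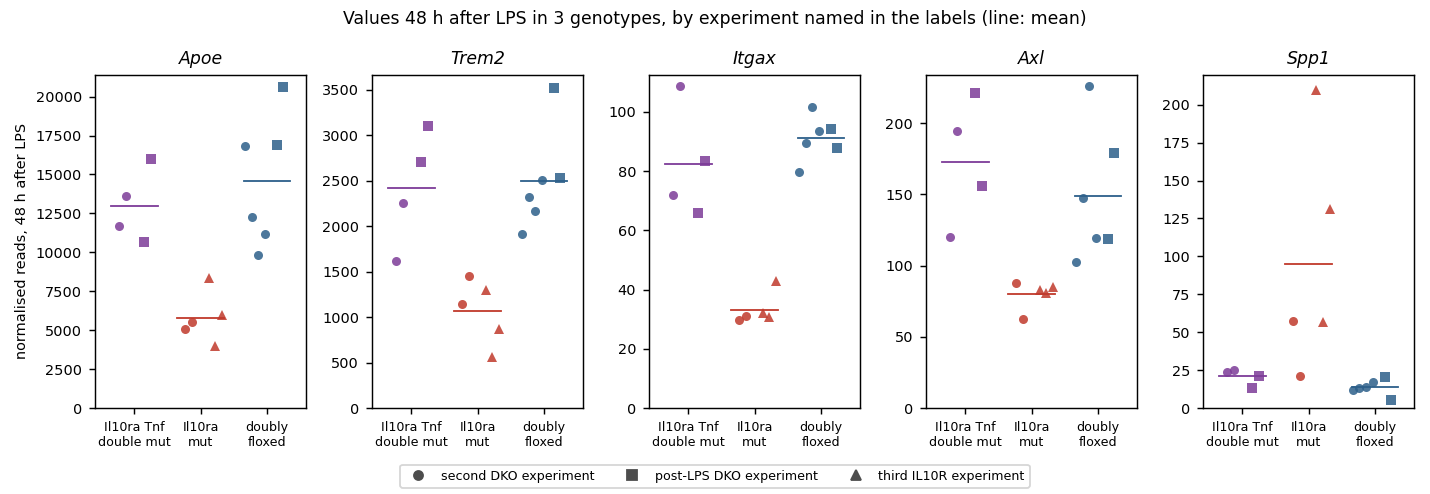
Normalised reads 48 h after LPS (linear axis from 0) of 5 genes in double mutants, Il10ra mutants and doubly floxed controls; each point is 1 library, its shape gives the experiment named in the labels, and each line is the group mean. Apoe, Itgax and Axl lie lowest in the Il10ra mutants, whose Itgax values (29.6 to 42.8) are below all double mutant values (65.8 to 108.6).

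The same 5 Il10ra mutant libraries at 48 h also stood in the double mutant table, where the term for the experiment makes the contrasts rest on replicates 4 and 5. Double mutants minus Il10ra mutants called 3 of 9 genes, all higher, beside 28.6% of all genes (14.9% higher). Itgax had 72.01, 108.6, 65.8 and 83.5 normalised reads in double mutants and 31.9, 30.9, 42.8, 29.6 and 30.9 in Il10ra mutants, with every double mutant library above every Il10ra mutant library (1.42 ± 0.29, 2.67-fold, limma adjusted p = 0.000214). Apoe had the double mutant values above and 8354, 3959, 5969, 5070.2 and 5534 in Il10ra mutants, also without overlap (1.04 ± 0.29, 2.05-fold, limma adjusted p = 0.00645). Axl had 83.03, 80.8, 84.8, 87.9 and 62.6 in Il10ra mutants, below every double mutant library (1.11 ± 0.36, 2.16-fold, limma adjusted p = 0.0164). The Apoe call ended without Il10ra mutant replicate 4 (0.97, limma adjusted p = 0.0663), and the Axl call without Il10ra mutant replicate 5 (0.87, 0.215) or double mutant replicate 2 (1.00, 0.0527). Without replicate 4 or 5 a single Il10ra mutant library is left in the shared experiment, and it is assumed to vary like the other groups.

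Trem2 had 1294, 559, 867, 1150.3 and 1449 normalised reads in Il10ra mutants and did not pass (0.60 ± 0.26, limma adjusted p = 0.0796), and Spp1, at 209.7, 56.7, 131, 57.4 and 21.4, did not either (-0.92 ± 0.48, 0.156). Trem2 passed under quantile normalisation (0.77, limma adjusted p = 0.0107) and with DESeq2 on whole reads (0.60, adjusted p = 0.0491). Both genes passed when the experiment was not a term (1.22 and -1.78), where the 3 Il10ra mutant libraries of the other experiment entered too, and those include the lowest for Trem2 and the highest for Spp1. Within the shared experiment, with 2 libraries a group and not tested by itself, the means of Trem2 were 1936 in double mutants and 1299.8 in Il10ra mutants, and those of Spp1 24.5 and 39.4.

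Il10ra mutants minus doubly floxed controls at 48 h called 6 of 9 genes, 1 higher and 5 lower, beside 33.9% of all genes, 16.6% higher and 17.3% lower, and this contrast shares the Il10ra mutant libraries with the previous one. Itgax (-1.57 ± 0.27), Apoe (-1.25 ± 0.27), Axl (-0.90 ± 0.33), Trem2 (-0.74 ± 0.24) and Tyrobp (-0.62 ± 0.24) were lower and Spp1 was higher (1.50 ± 0.45), with limma adjusted p from 1.37e-05 to 0.0398. Without Il10ra mutant replicate 4 only the Itgax and Apoe calls held. Then Spp1 stood at 0.81 (limma adjusted p = 0.342), Trem2 at -0.58 (0.203), Axl at -1.14 (0.0562) and Tyrobp at -0.77 (0.0732). Without replicate 5 Axl (-0.66, 0.331) and Tyrobp (-0.47, 0.331) were lost. Quantile normalisation ended the Tyrobp call (-0.41, 0.169), and fitting only these groups ended those of Spp1 (1.26, 0.0655) and Tyrobp (-0.56, 0.0715). The Axl call also ended without control replicate 4 (-0.74), and the Tyrobp call without control replicate 2, 5, 6 or 7 (-0.62 to -0.59).

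After LPS the doubly floxed controls had 7 of 9 genes called at 6 h (3 higher and 4 lower, beside 42.7% of all genes, 21.6% higher and 21.1% lower) and 6 at 48 h (5 higher and 1 lower, beside 23.6%, 13.8% higher and 9.83% lower). The double mutants had 4 at 6 h (3 and 1, beside 44.3%, 22.8% higher and 21.5% lower) and 5 at 48 h (4 and 1, beside 18.1%, 11.2% higher and 6.86% lower). The direct tests of these differences in response called 0 of 9 genes at 6 h and 0 at 48 h (beside 0.00847% and 0.0% of all genes, with 2 and 1 at an unadjusted p under 0.05, and 0 by edgeR or DESeq2). The nominal ones were Cst7 (-0.75 ± 0.30 at 6 h and -0.80 ± 0.31 at 48 h) and Spp1 at 6 h (-1.14 ± 0.47). Axl at 48 h changed by 2.60 ± 0.27 in double mutants and 2.37 ± 0.23 in doubly floxed controls. Apoe changed by 0.86 ± 0.22 and 0.97 ± 0.19, Cst7 by 1.80 ± 0.24 and 2.61 ± 0.21, and Itgax by 1.28 ± 0.22 and 1.46 ± 0.19 (limma adjusted p at most 0.00444 for these 4 genes). In double mutants Trem2 was called lower at 48 h, a call lost when libraries were blocked by replicate number (-0.63, limma adjusted p = 0.067). Doubly floxed controls held 1913 to 3522 normalised reads of Trem2 at 48 h and 2939 to 4627 untreated. Spp1 at 6 h was raised by 5.51 ± 0.33 in double mutants, at 399 to 794 normalised reads, and by 6.65 ± 0.33 in doubly floxed controls, at 394 to 572. Untreated libraries held 5 to 13 reads of Spp1 in double mutants and 2 to 6 in doubly floxed controls. The 2 rises and their difference thus rest on few untreated reads. Monocyte markers summed to 130.4 to 318 at 6 h and 202 to 425 at 48 h, against 11.7 to 54.6 untreated, in double mutants, and to 76.8 to 596 and 114.2 to 415, against 13.6 to 50.8, in doubly floxed controls, without overlap with the untreated libraries. At 48 h 2 of the 7 tested were higher in each genotype, Fn1 (5.87 ± 0.40 in double mutants and 5.52 ± 0.35 in doubly floxed controls) and Plac8. Their part in these changes was not tested. The low genes Clec7a and Lpl had at most 32.6 and 52.5 normalised reads in untreated doubly floxed controls, and the 6 h fall of Lpl (-0.95 ± 0.39, limma adjusted p = 0.0431) was lost in 7 of 11 fits without 1 library.

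At 6 h the double mutants and their controls lay close in most genes. Trem2 had 908 (lowest), 1833 (median) and 2651 (highest) normalised reads in double mutants and 1038, 1112, 1193, 1621 and 1611 in doubly floxed controls (0.49 ± 0.18, 95% interval 0.13 to 0.84, limma adjusted p = 0.244). Cst7 had 27.8 (lowest), 32.2 (median) and 48.5 (highest) and 40.2, 42.2, 50.5, 60.1 and 51.2 (-0.46 ± 0.21, limma adjusted p = 0.402), in double mutants and controls. Both sets of libraries overlapped. Against untreated libraries of its own genotype, Trem2 was lower at 6 h, with log2 changes of -1.07 ± 0.18 in double mutants and -1.55 ± 0.18 in doubly floxed controls (limma adjusted p = 4.54e-06 and 2.32e-09). Apoe, Tyrobp and Lpl were called lower at 6 h in the doubly floxed controls (-0.60, -0.55 and -0.95) and were not called in the double mutants (-0.33, -0.24 and -0.12). The direct tests of these 3 differences did not pass, and quantile normalisation ended all 3 calls in the controls. Axl was not called at 6 h in either (0.20 ± 0.25 in double mutants and -0.13 ± 0.24 in doubly floxed controls).

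Microglia markers at 48 h summed to 18132 to 21031 in double mutants, 6706 to 12419 in Il10ra mutants and 18628 to 22964 in doubly floxed controls, so they too were lowest in the Il10ra mutants. Border macrophage markers summed to 28.5 to 133, 10.2 to 28.7 and 28.5 to 241 in the same groups. Monocyte markers summed to 202 to 425, 26.9 to 177 and 114.2 to 415. Between double and Il10ra mutants, beside 14.9% of all genes higher and 13.7% lower, 12 of 16 homeostatic genes were higher and 0 lower (median 1.34, beside -0.01 over all genes), led by Slc2a5 (3.74 ± 0.28), Olfml3 (3.36 ± 0.27) and Gpr34 (2.43 ± 0.58). Of the 5 genes tested in the GAS6 axis 3 were higher and 2 lower, with Gas6 (2.09 ± 0.24) and Pros1 (2.26 ± 0.21) higher and Socs1, a cytokine signalling inhibitor, lower (-1.99 ± 0.41). Of 28 other neurodegeneration genes 10 were higher and 8 lower, with Ccl3 (-4.34 ± 0.47), Ccl4 (-3.92 ± 0.46) and Lgals3 (-3.85 ± 0.52) lower (limma adjusted p of each gene named at most 0.00029). Between double mutants and doubly floxed controls at 48 h limma called 0 genes of these 7 lists. The part of cell make-up in the Apoe, Itgax and Axl differences was not tested.

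Untreated C57BL/6 microglia differed from untreated Il10ra-floxed controls in 5 of the 9 genes, 4 higher and 1 lower, beside 9.74% of all genes, 5.8% higher and 3.95% lower. Axl had 69.5, 116.2, 62.2 and 67.2 normalised reads in the 4 C57BL/6 libraries and 23.6 (lowest), 30.1 (median) and 68.1 (highest) in the 6 controls, where only the highest control reached the C57BL/6 range (1.19 ± 0.23, limma adjusted p = 0.00107). Clec7a had 48.3, 39.4, 41.5 and 36.4 in C57BL/6 and 8.89 (lowest), 19.7 (median) and 31.6 (highest) in controls, without overlap (1.07 ± 0.26, limma adjusted p = 0.00789). Tyrobp (3943 to 4465 and 2726 to 3589.5) and Cst7 (31.8 to 41.2 and 17.7 to 27.4) were higher too, by 0.42 ± 0.11 and 0.78 ± 0.22 (limma adjusted p = 0.0129 and 0.0238). Apoe was lower, at 3705, 6181, 4085 and 3196 in C57BL/6 and 6228 (lowest), 6672 (median) and 7742 (highest) in controls (-0.70 ± 0.15, limma adjusted p = 0.00311). The other 4 genes were not called: Trem2 (3322 to 3707 in C57BL/6 and 2679.8 to 3857 in controls, 0.21 ± 0.12), Itgax (-0.33 ± 0.19), Lpl (0.95 ± 0.39) and Spp1 (-0.06 ± 0.59). The Cst7 call ended without C57BL/6 replicate 2 (0.73), 3 (0.75) or 4 (0.79) or control replicate 4 (0.73), and the Tyrobp call without C57BL/6 replicate 3 (0.38) or under quantile normalisation (0.22, adjusted p = 0.199). These libraries came from an experiment of their own, so strain and experiment cannot be told apart. Erythroid markers (4 of 4 tested higher) summed to 202 to 886 in C57BL/6 and 0 to 217 in controls, and neutrophil markers (3 of 4 lower) to 1.87 to 8.64 and 5.15 to 635. Monocyte markers (1 of 2 tested lower, Chil3) summed to 3.45 to 9.37 in C57BL/6 and 16.9 to 34.1 in controls, and astrocyte markers (1 of 1 lower, Slc1a3) to 140.2 to 197 and 220.6 to 279.8, both without overlap. Border macrophage markers (0 of 5 called) summed to 31.1 to 95.6 and 10.7 to 50.8, and endothelial markers (1 of 2 higher, Pecam1) to 19.0 to 54.6 and 13.99 to 20.0, both overlapping. Their part in these differences was not tested.

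The 9 genes also differed from each other in their course over the 8 groups of Il10ra mutants and controls. Over the 8 group means of log2(value + 1), Pearson's r was 0.86 between Apoe and Tyrobp, 0.82 between Itgax and Clec7a and 0.80 between Axl and Cst7, but -0.78 between Trem2 and Spp1 and 0.28 between Apoe and Trem2. These are descriptions over 8 points that share libraries and depth. Among 7751 other genes with a mean of at least 20 in a group, the closest to Apoe were Cbr2 (0.983), Ndufv3 (0.978) and Ndufa13 (0.977), and the closest to Trem2 were Golm1 (0.989), Fchsd2 (0.986) and Ctsd (0.985). Those of Spp1 were Mrpl45 (0.984), Idh3a (0.984) and Mrps34 (0.983). Those of Axl were Svbp (0.959), Tmx1 (0.955) and Rps12 (0.954), and those of Cst7 Ms4a4c (0.991), Fcer1g (0.990) and Rps2 (0.987). Tyrobp was closest to Naip5, Lilra5 and Alox5ap (0.974 to 0.966), Itgax to Lcp1, Fam217b and Spidr (0.974 to 0.963), Clec7a to Pmpcb, Sec24b and Nxf1 (0.985 to 0.970), and Lpl to Fkbp7, Thoc7 and Rhoq (0.935 to 0.912).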

How the data were processed

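The files hold RNA values of 88 grouped mouse microglia libraries. Per the file headers and the values, the deposited signal in 4 tables is gene read counts divided by 1 size factor per library, and 100% of values gave whole reads within a tolerance of 0.01 read. Reads were mapped to build mm10, per the labels, and the sources used here name no aligner, counting settings or size factor method. ATAC-seq files were not used here. Rows with a date in place of a gene name (17 or 18 a table) or a blank name (1 in 2 tables) were left out.

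Values were tested as log2(value + 1) with limma 3.58.1 (trend) in R 4.3.3, keeping genes at 5 or more in as many libraries as the smallest group, with the experiment as a term and every group of a table in 1 fit. Tests of whole reads with edgeR 4.0.16 (quasi-likelihood) and DESeq2 1.42.0, another pseudocount (5), another filter (20) or none, quantile normalisation, other designs and leaving out each library were alternatives. The limma step was tested on simulated data. Fits of C57BL/6 and 7-day libraries against others have no experiment term that could separate them.

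Replicate numbers were checked by the correlation of same-numbered libraries' deviations from their group means. Every pair exceeded 0.1 only for doubly floxed 6 h against untreated libraries (5 pairs, 0.131 to 0.226), where the block left the count of calls at 7. The members and lists were chosen with earlier results of these data known. Genes named are the members, the 3 called genes of largest change per list and the 3 genes of most similar course over group means per member, leaving out predicted genes. A gene that this rule names is not reported here.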

Additional observations from a re-analysis of the deposited data

Results flagged for a closer look

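In 11 of the sets of 4 to 10 libraries, taken per gene and group, 1 library stood far from the rest of its group. That is 7.64% of the sets, where the rule would flag 1 in 20 sets of normally distributed values. What set these libraries apart was not tested. Each was the highest of its group. Axl was 116.2 normalised reads in C57BL/6 replicate 2 (others at most 69.5), 80.4 in untreated Il10ra-floxed control replicate 1 (others at most 38.4) and 42.1 in doubly floxed control replicate 4 at 6 h (others at most 24.3). Trem2 was 1976 in Il10ra-floxed control replicate 3 at 24 h (others at most 1443) and 2211 in replicate 2 at 6 h (others at most 1761). Lpl was 41.3 in that same 6 h library (others at most 12.8) and 52.5 in untreated doubly floxed control replicate 4 (others at most 26.0). Itgax was 122.04 in Il10ra-floxed control replicate 1 at 6 h (others at most 86.3) and 40.9 in Il10ra mutant replicate 3 at 48 h (others at most 30.6). Apoe was 9003 in untreated Il10ra-floxed control replicate 3 (others at most 7886), and Cst7 was 98.6 in doubly floxed control replicate 4 at 48 h (others at most 73.4).

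At 48 h the change after LPS differed between Il10ra mutants and Il10ra-floxed controls by a test of the difference itself for 5 genes. The log2 differences were 3.19 for Spp1, -1.67 for Apoe, -1.43 for Trem2, -1.26 for Axl and -1.06 for Itgax. These are the values whose libraries and marker levels are given in the report.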

How the results depend on the processing

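No called value of the 9 genes changed sign under any alternative run. Of 5350 alternative fits of single genes 192 had another sign, each in a value not called either way. Scaling alternatives shifted the median of all genes by under 0.1 on the log2 scale. Over all genes edgeR on whole reads called 1900 higher and 1995 lower in Il10ra mutants against controls at 48 h, beside 1465 and 1762 by limma. Leaving out the experiment term called 5 genes for controls at 48 h (3 in the report) and 6 for double against Il10ra mutants (3). Fitting only the groups compared called 3 for controls at 24 h (5). Quantile normalisation called 4 for doubly floxed controls at 6 h (7). DESeq2 called 5 for controls at 48 h (3), and edgeR and DESeq2 each called 1 for Il10ra mutants at 24 h (0). With the replicate block the counts were 8 for controls at 6 h (5), 3 at 24 h (5), 5 at 48 h (3), 5 for double against Il10ra mutants (3) and 3 for C57BL/6 (5); those libraries share only a number, and the cause of each shift was not tested. Leaving out 1 library gave 4 to 6 calls for controls at 6 h, 3 to 5 at 24 h and 3 to 5 at 48 h. It gave 3 to 6 for Il10ra mutants against controls at 48 h, 0 to 1 at 6 h and 0 to 1 at 24 h, and 4 to 6 for the difference in response at 48 h. It gave 2 to 6 for Il10ra mutants against doubly floxed controls, 2 to 3 for double against Il10ra mutants, 0 to 1 for double mutants against their controls at 6 h and 3 to 5 for C57BL/6. Further libraries lay behind these shifts. Between Il10ra mutants and controls at 6 h, Clec7a (1.15) was called without mutant replicate 7 and Lpl (1.77) without control replicate 2. At 24 h Apoe was called without control replicate 1 (-0.77) or 2 (-0.71). In controls at 48 h Trem2 was called without replicate 1 (-0.48) or 5 (-0.47), and Itgax without replicate 3 (0.70) or 5 (0.68). In controls at 6 h Lpl was called lower without replicate 2 (-2.43). Between double mutants and their controls at 6 h Trem2 (0.64) was called without double mutant replicate 3. For the difference in response at 48 h Tyrobp was called without untreated control replicate 1 or 3 or untreated mutant replicate 9. It was also called without control replicate 2 or 4 or mutant replicate 1 or 3 at 48 h (-0.72 to -0.56 over these fits). Lpl, Clec7a and untreated Spp1 rest on at most 77, 80 and 23 reads a library, which limits their tests.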

Other observations

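A library of the second double mutant experiment, 48 h after LPS, carried labels that conflict, so it was placed in no group. Its title gives a doubly floxed control and its description a double mutant, and its deposited column name gives a control together with the word mistake. It held 18198 normalised reads of Apoe, 1974 of Trem2, 5410.4 of Tyrobp, 21.5 of Spp1, 68.1 of Itgax, 55.8 of Cst7, 94.4 of Axl, 16.6 of Lpl and 3.07 of Clec7a. Its Il10ra level was 467 normalised reads and its Tnf level 266. Both were above the 48 h averages of doubly floxed controls given earlier, and far above those of double mutants.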
